A study of Mus musculus with 30 samples.

Results

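Glycolysis and hypoxia-response genes were followed on 30 arrays of mouse embryonic stem cells (ESCs). The list named 10 genes: the glucose transporters Slc2a1 and Slc2a3, the glycolytic enzymes Hk2, Pfkl, Aldoa, Pgk1 and Eno1, lactate dehydrogenase A (Ldha), pyruvate dehydrogenase kinase 1 (Pdk1), and Bnip3, a mitochondrial protein of the hypoxia response. The list was chosen with earlier results of these data known, and its members were matched by gene symbol alone, without use of their signal. They were 9 of 18097 gene symbols and 10 of 25697 probes, and Hk2 was not analysed here. Of these, 9 probes for 8 genes were detected on enough arrays to be tested, among 15151 probes tested in all.

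All arrays were of rescue clones derived from Ainv15, a mouse ESC line that carries rtTA, the activator that doxycycline (Dox) switches on. In Bub1b_R, Chek1_R, Ppm1g_R and Ppp2r1b_R a short hairpin RNA depletes the endogenous mRNA of the named gene, and Dox at 1 μg/ml turns on a copy that the hairpin does not recognize, so that taking Dox away depletes the gene. Bub1b and Chek1 encode checkpoint kinases, Ppm1g a protein phosphatase and Ppp2r1b a scaffold subunit of a protein phosphatase. Ctrl_R is the control clone, also kept with and without Dox. Its arrays carry sample numbers from an earlier range than those of all other clones. Whatever differs between those ranges cannot be told apart from clone in any comparison of levels with Ctrl_R. For each clone, 3 arrays were run on cells kept with Dox and 3 on cells kept for 5 days without it. The paper states that 3 independent clones were made per rescue gene. The labels do not say which of them each array came from, and clone below means the label. Nothing in the labels says that the 3 arrays came from separate cultures, so p-values measure only the spread between these arrays.

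Glycolysis breaks glucose down to pyruvate in the cytosol, and ESCs in culture use it heavily. Glucose enters through transporters such as Slc2a1 and Slc2a3, and Ldha turns pyruvate into lactate while Pdk1 holds pyruvate back from the mitochondria by inhibiting pyruvate dehydrogenase. When oxygen is scarce, the prolyl hydroxylases of the Egln family no longer mark Hif1a for destruction, and Hif1a with its partner Arnt binds the hypoxia-response element, whose core is ACGTG, at many of these genes.

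Promoter sequences show how unevenly that core is spread over the members. RefSeq windows (build GRCm38.p6) were at hand for 9 of the 10 members, Slc2a3 excepted. The 250 bases upstream of each start site were searched for ACGTG on both strands, and for the E-box CACGTG, a palindrome that holds ACGTG on both strands and so counts as 2 overlapping matches. ACGTG was found in 16.6% and CACGTG in 6.02% of 32851 windows of the same length. Of the members, 6 had a window with ACGTG (Hk2, Aldoa, Pgk1, Ldha, Slc2a1 and Bnip3), and Ldha and Bnip3 also had CACGTG. Some genes have several windows, and counted by window ACGTG was in 7 of the 15 windows of these members. Pfkl, Eno1 and Pdk1 had neither in any of their windows. Matching letters describe the sequence and do not show binding. The promoters of 3 members on which the results below turn are shown 5′ to 3′ on the coding strand, with matches in capitals. Slc2a1 (chr4:119108495-119108744, plus strand) holds 1 match, Pgk1 (chrX:106186850-106187099, plus strand) holds 2, and Ldha (chr7:46845554-46845803, plus strand) holds 5, of which 4 lie in its 2 E-boxes.
Slc2a1: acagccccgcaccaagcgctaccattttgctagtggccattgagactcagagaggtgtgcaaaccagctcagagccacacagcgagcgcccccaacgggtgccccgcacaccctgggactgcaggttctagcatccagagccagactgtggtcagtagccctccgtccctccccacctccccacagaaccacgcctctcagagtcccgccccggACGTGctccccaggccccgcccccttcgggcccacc
Pgk1: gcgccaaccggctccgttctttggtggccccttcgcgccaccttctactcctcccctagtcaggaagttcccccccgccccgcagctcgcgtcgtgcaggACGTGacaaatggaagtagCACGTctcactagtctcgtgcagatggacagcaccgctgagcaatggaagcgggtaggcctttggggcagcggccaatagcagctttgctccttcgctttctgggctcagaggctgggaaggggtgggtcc
Ldha: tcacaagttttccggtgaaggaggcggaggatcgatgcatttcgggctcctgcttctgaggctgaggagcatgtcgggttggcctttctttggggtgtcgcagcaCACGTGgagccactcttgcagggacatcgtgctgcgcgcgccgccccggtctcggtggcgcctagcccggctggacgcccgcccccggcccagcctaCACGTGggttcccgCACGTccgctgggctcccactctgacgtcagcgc

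Between 11733 and 13685 probes were detected per array. The number of arrays, 3 per condition, limits the precision of every value. The 12 arrays of Bub1b_R and Ctrl_R had a lowest detected signal of 12.9 to 20.9, and the 18 arrays of the other 3 clones one of 27.8 to 58.1. Any difference of Chek1_R, Ppm1g_R or Ppp2r1b_R from Ctrl_R therefore crosses the 2 sets, and set and clone cannot be told apart there. A change on Dox withdrawal stays inside a set. The sets rest on signal alone, and Bub1b_R and Ctrl_R differ in their range of sample numbers. The targeted mRNA fell on Dox withdrawal in Ppm1g_R, by 1.25 on the log2 scale (SE 0.10, limma, adjusted p = 4.5e-09, n = 3 arrays per condition). Chek1 mRNA went the other way and rose by 0.71 (SE 0.16, limma, adjusted p = 0.00115), so the 6 arrays are called the arrays labelled Chek1_R below. Its probe was dim, with a mean of 5.31 with Dox and 6.01 without. On the same arrays with Dox, Pdk2 had a mean of 5.53 and was detected on 0 of 3, so the size of the Chek1 rise is uncertain. The changes in Bub1b (−0.14, adjusted p = 0.217) and Ppp2r1b (0.20, adjusted p = 0.365) did not pass. Against Ctrl_R without Dox, the targeted mRNA was lower for Ppm1g (log2 difference −1.74, adjusted p = 5.66e-13), Chek1 (−1.07, adjusted p = 3.06e-06) and Bub1b (−0.67, adjusted p = 1.05e-07), all past 1.5-fold, and the difference for Ppp2r1b (−0.25, adjusted p = 0.158) did not pass. The paper states that the rescue copies of Bub1b and Chek1 lack the hairpin's target, while those of Ppm1g and Ppp2r1b carry silent changes in it. Whether these probes also read the copy that Dox turns on was not tested. All 6 ESC markers examined (Pou5f1, Nanog, Sox2, Esrrb, Zfp42 and Tcl1) were detected on all arrays.

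**Figure D1:**
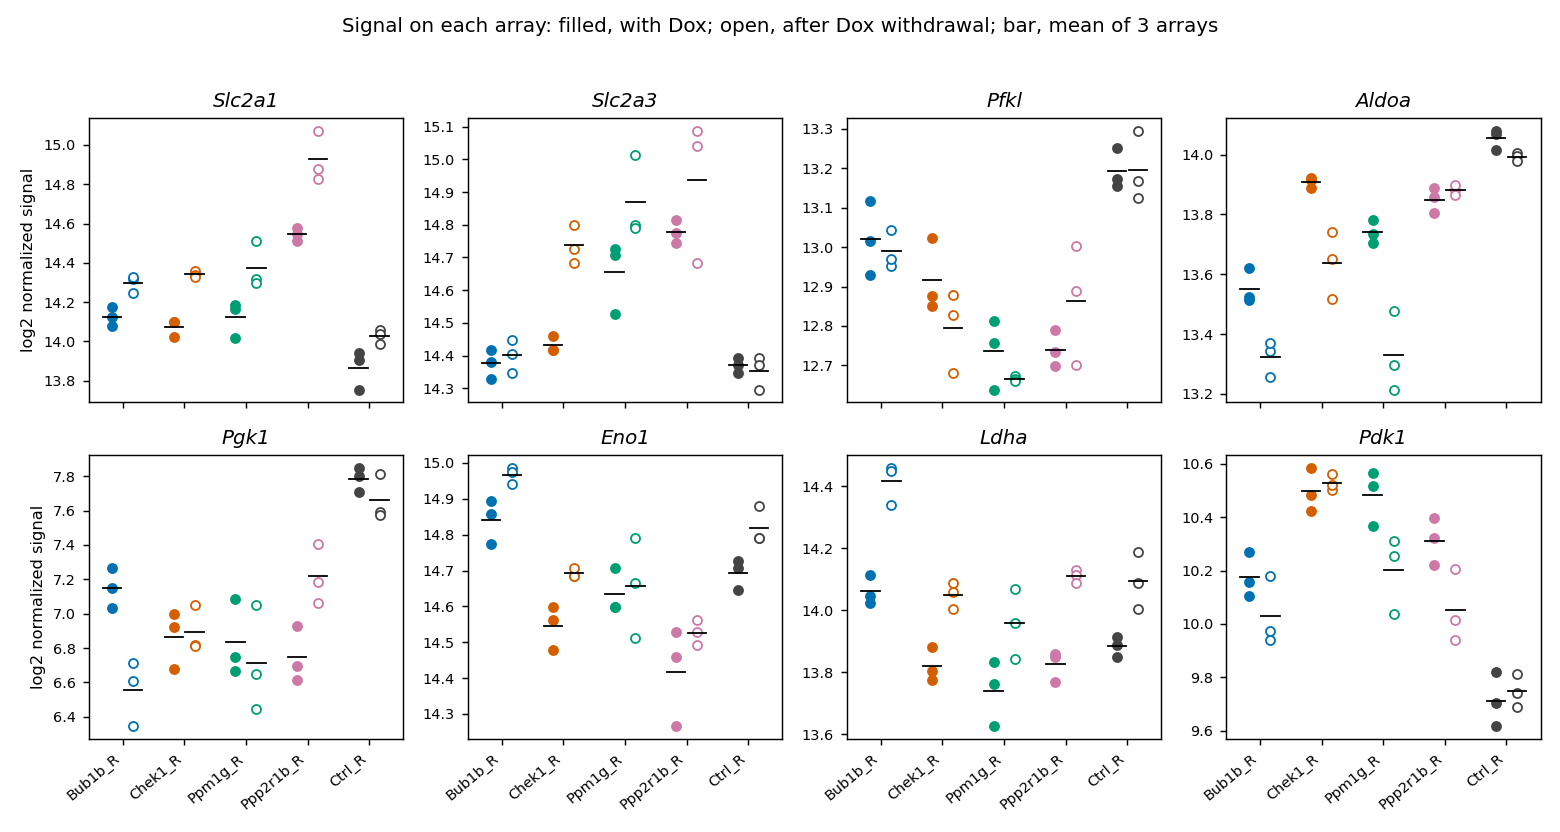
Log2 normalized signal (vertical axis) of the 8 tested members on each of the 30 arrays, by clone (horizontal axis), with the mean of 3 arrays as a bar; filled points are arrays with Dox and open points arrays after 5 days without it. The 3 Ldha arrays without Dox lie above the 3 with Dox in all 5 clones, and Pgk1 lies highest and Pdk1 lowest in Ctrl_R; each panel has its own scale, and levels are not comparable between genes.

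Changes on Dox withdrawal were small. They were estimated with limma on log2 normalized signals, as the mean of 3 arrays without Dox minus the mean of 3 with Dox. A change passed the test at an adjusted p under 0.05, and a stricter count also asked for at least 1.5-fold. At the stricter limit 1 of 8 members changed in Bub1b_R (Pgk1, lower), where 5.6% of all tested probes did, and 0 of 8 changed in Chek1_R, Ppm1g_R, Ppp2r1b_R and Ctrl_R, where 9.27%, 4.37%, 4.82% and 1.1% of all probes did. By adjusted p alone 3 of 8 passed in Bub1b_R against 24.4% of all probes. The same count was 4 of 8 in the arrays labelled Chek1_R against 30.9%, 4 of 8 in Ppm1g_R against 23.4%, 4 of 8 in Ppp2r1b_R against 25.3%, and 1 of 8 in Ctrl_R against 7.55%. The median absolute change of the members was 0.16, 0.19, 0.22, 0.21 and 0.09 in these clones in the same order, and that of all tested probes was 0.16, 0.18, 0.16, 0.17 and 0.12. With so few members, these counts stand near the share of all probes. The 3 arrays without Dox did not overlap the 3 with Dox for 5, 5, 5, 4 and 4 of 8 members in the 5 clones, against 41.4%, 44.2%, 37.8%, 32.2% and 26.2% of all tested probes. In bulk samples such as these, fewer cells of a type and less RNA per cell cannot be told apart.

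**Figure D2:**
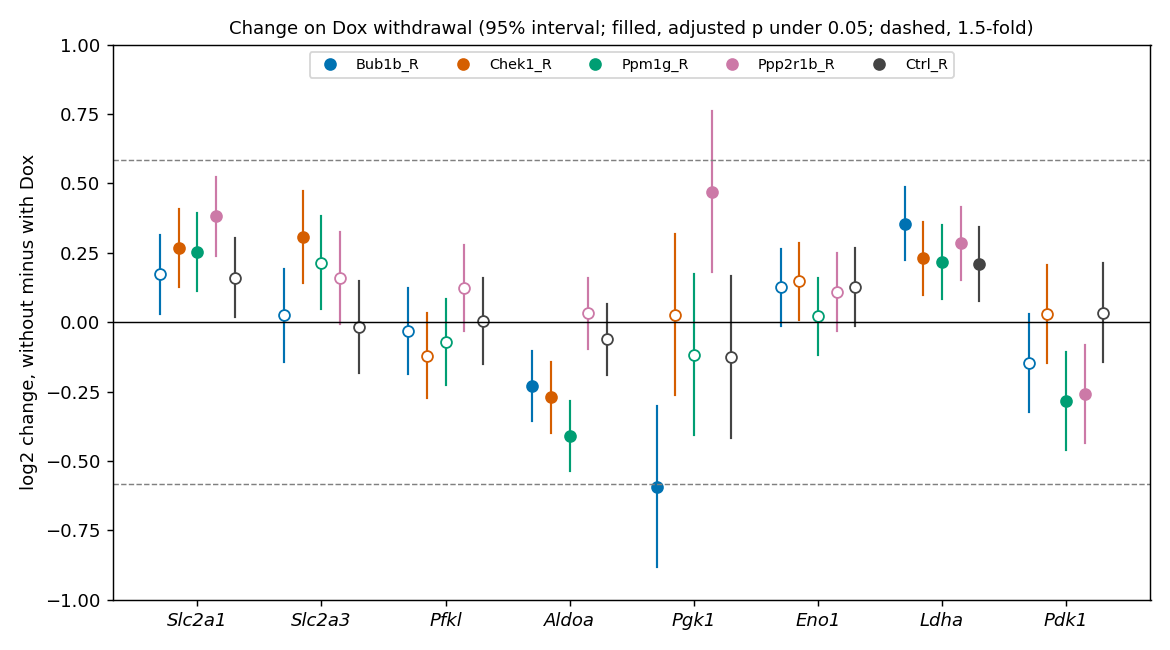
Log2 change on Dox withdrawal (vertical axis, without minus with Dox) of the 8 tested members (horizontal axis) in the 5 clones, with 95% intervals from the limma fit; filled points passed at an adjusted p under 0.05 and dashed lines mark 1.5-fold. Ldha lies above 0 in all 5 clones, Aldoa below 0 in Bub1b_R, Chek1_R and Ppm1g_R, and Pgk1 moves in opposite directions in Bub1b_R and Ppp2r1b_R.

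Of the glucose transporters, Slc2a1, the widely expressed transporter of basal glucose uptake, rose without Dox in 3 clones. On the arrays labelled Chek1_R its log2 signals were 14.10, 14.02 and 14.10 with Dox and 14.36, 14.34 and 14.33 without, and the groups did not overlap. The change was 0.27 (SE 0.07, limma, adjusted p = 0.00389). In Ppp2r1b_R the arrays read 14.54, 14.51 and 14.58 with Dox and 14.88, 14.83 and 15.07 without, again without overlap. This was the largest change of Slc2a1, 0.38 (SE 0.07, adjusted p = 0.000224), under 1.5-fold. In Ppm1g_R it rose by 0.25 (adjusted p = 0.0086), but not on another scaling, which set the median of each array equal and gave −0.05, and not without replicate 3 with Dox (0.20) or replicate 2 without Dox (0.18). Its groups did not overlap in Bub1b_R (0.17, adjusted p = 0.0705) or in Ctrl_R (0.16, adjusted p = 0.167) either, where the change did not pass.

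Slc2a3, the high-affinity transporter abundant in early embryos, rose only on the arrays labelled Chek1_R among the 5 clones. There it read 14.42, 14.42 and 14.46 with Dox and 14.80, 14.73 and 14.68 without, a change of 0.31 (SE 0.08, adjusted p = 0.00489) that became 0.24 and no longer passed on median scaling. Its change was 0.21 in Ppm1g_R (adjusted p = 0.0571) and 0.16 in Ppp2r1b_R (adjusted p = 0.159). In Ppp2r1b_R the arrays without Dox read 15.04, 15.09 and 14.68, and the last lay below all 3 arrays with Dox. Without that array the change was 0.29 and passed. In Bub1b_R and Ctrl_R it was 0.02 and −0.02, and the groups overlapped. Whether its change differs among the 4 clones was tested with an F-test, and it did not pass (adjusted p = 0.257).

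In the upper part of the pathway, Aldoa, which splits fructose 1,6-bisphosphate, fell in Bub1b_R, in Ppm1g_R and on the arrays labelled Chek1_R. In Ppm1g_R its signals were 13.73, 13.78 and 13.71 with Dox and 13.48, 13.30 and 13.21 without, so every array without Dox lay below every array with it. The fall was 0.41 on the log2 scale (SE 0.06, adjusted p = 2.63e-05), or 1.33-fold. In Bub1b_R they were 13.52, 13.51 and 13.62 with Dox and 13.34, 13.37 and 13.26 without, and it fell by 0.23 (SE 0.06, adjusted p = 0.00726). On the arrays labelled Chek1_R it fell by 0.27 (adjusted p = 0.0014), also with no overlap. These falls were 0.22 and 0.24 with median scaling, where they did not pass, and 0.53 in Ppm1g_R, where it did. In Ppp2r1b_R the change was 0.03 and the groups overlapped. In Ctrl_R it was −0.06, with arrays of 14.02, 14.08 and 14.07 with Dox and 14.00, 13.99 and 13.98 without, which did not overlap but differed little.

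Aldoa was also the only member whose change passed against that of Ctrl_R. In Ppm1g_R its change lay 0.35 lower than in Ctrl_R (log2 difference of changes −0.35, SE 0.09, adjusted p = 0.00933), so 1 of 8 members passed there against 12% of all tested probes. For Bub1b_R, the arrays labelled Chek1_R, and Ppp2r1b_R, 0 of 8 members passed against 12.2%, 18.3% and 8.28%. At an unadjusted p under 0.05 the counts were 1, 2 and 3 of 8, which cannot be set against those shares. The share of all tested probes at that limit was not worked out. These 4 comparisons share the Ctrl_R arrays. The nearest to passing were Slc2a3 on the arrays labelled Chek1_R (0.32, adjusted p = 0.0505) and Pgk1 in Ppp2r1b_R (0.60, adjusted p = 0.0638).

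Pfkl, the liver-type subunit of phosphofructokinase, had 2 probes, and neither passed on Dox withdrawal in any clone. The brighter changed by between −0.12 on the arrays labelled Chek1_R and 0.12 in Ppp2r1b_R, the dimmer by between −0.16 and 0.11 in the same clones, and groups of both overlapped throughout. For the brighter the 95% interval in Ctrl_R ran from −0.15 to 0.16.

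Lower in the pathway, Pgk1, which makes the first ATP of glycolysis from 1,3-bisphosphoglycerate, moved in opposite directions in 2 clones. In Bub1b_R its log2 signals were 7.27, 7.03 and 7.15 with Dox and 6.71, 6.61 and 6.35 without, with no overlap. It fell by 0.59 (SE 0.14, adjusted p = 0.00265), the 1 change past 1.5-fold, at 1.51-fold. In Ppp2r1b_R they were 6.61, 6.70 and 6.93 with Dox and 7.06, 7.40 and 7.19 without, and it rose by 0.47 (SE 0.14, adjusted p = 0.0155). In the other clones the groups overlapped and the changes were 0.03, −0.12 and, in Ctrl_R, −0.13. The F-test of a difference among the 4 clones passed for Pgk1 (adjusted p = 0.00287) and for Aldoa (adjusted p = 0.00416), 2 of 8 members against 24% of all tested probes. The fall in Bub1b_R passed without any 1 of its arrays (0.49 to 0.67), but lay under 1.5-fold without replicate 1 with Dox or replicate 3 without Dox. The rise in Ppp2r1b_R did not pass without replicate 1 with Dox (0.40) or replicate 2 without Dox (0.38). This probe was among the dimmer ones, with 58.7% of tested probes brighter on average.

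Eno1, which forms phosphoenolpyruvate, changed by 0.02 to 0.15 and did not pass in any clone. Its arrays did not overlap in Bub1b_R, where they read 14.77, 14.86 and 14.89 with Dox and 14.99, 14.94 and 14.97 without, nor on the arrays labelled Chek1_R or in Ctrl_R, where the change was 0.13 (adjusted p = 0.287). In Ppm1g_R the value of 0.02 became −0.30 with median scaling.

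Ldha rose in all 5 clones, the control included. In Bub1b_R its log2 signals were 14.05, 14.11 and 14.02 with Dox and 14.46, 14.34 and 14.45 without, the largest change among the clones at 0.35 (SE 0.06, adjusted p = 0.00018), or 1.28-fold. In Ppp2r1b_R they were 13.85, 13.77 and 13.86 with Dox and 14.13, 14.11 and 14.09 without, a rise of 0.28 (adjusted p = 0.00196). In Ctrl_R they were 13.91, 13.89 and 13.85 with Dox and 14.19, 14.09 and 14.00 without, a rise of 0.21 (SE 0.06, adjusted p = 0.0452). No array without Dox overlapped those with Dox in any clone. It also rose by 0.22 in Ppm1g_R (adjusted p = 0.0154) and by 0.23 on the arrays labelled Chek1_R (adjusted p = 0.00739). Leaving out single arrays of Ctrl_R gave 0.16 to 0.25, and the rise passed in 1 of these 6 fits, that without replicate 3 without Dox, and it did not pass with median scaling (0.23). In Ppm1g_R it did not pass without replicate 3 with Dox (0.16) or replicate 2 without Dox (0.16), and median scaling gave −0.03. The differences from the change in Ctrl_R were 0.14, 0.02, 0.01 and 0.07, none past the test, with 95% intervals that reached from −0.18 to 0.33 over the 4 clones.

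Pdk1 went down in 2 clones. In Ppm1g_R its log2 signals were 10.37, 10.57 and 10.52 with Dox and 10.31, 10.25 and 10.04 without, a fall of 0.28 (SE 0.09, adjusted p = 0.0174). In Ppp2r1b_R they were 10.40, 10.22 and 10.32 with Dox and 9.94, 10.20 and 10.01 without, a fall of 0.26 (adjusted p = 0.0275). The groups did not overlap in these 2 clones and overlapped in the other 3, where the change was −0.15 in Bub1b_R and 0.03 in both others. Each fall lost its call without some single arrays, 3 of 6 in Ppm1g_R (replicates 2 and 3 with Dox and replicate 3 without Dox, 0.20 to 0.27) and 4 of 6 in Ppp2r1b_R (replicates 1 and 3 of both conditions, 0.20 to 0.26). With median scaling the fall in Ppp2r1b_R was 0.25 and did not pass.

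Bnip3 was not detected on any of the 30 arrays, with detection p between 0.153 and 0.982, and was not tested. Its signal was not well above background in any condition.

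Over the mean of the 4 clones, in which changes shared by the clones are estimated most precisely, 6 of 8 members passed by adjusted p alone against 46.4% of all tested probes, and 0 of 8 reached 1.5-fold against 3.56%. Higher were Ldha (0.27, SE 0.03, adjusted p = 1.65e-07), Slc2a1 (0.27, SE 0.03), Slc2a3 (0.18, SE 0.04) and Eno1 (0.10, SE 0.03). Lower were Aldoa (−0.22, SE 0.03, adjusted p = 2.29e-06) and Pdk1 (−0.16, SE 0.04). Pfkl (−0.02) and Pgk1 (−0.05) did not pass. This mean does not take out the change in Ctrl_R on Dox withdrawal. In Ctrl_R the change was 0.21 for Ldha, 0.16 for Slc2a1, −0.02 for Slc2a3, 0.13 for Eno1, −0.06 for Aldoa and 0.03 for Pdk1. Median scaling left Ldha, Slc2a1 and Aldoa past the test, and gave 0.08 for Slc2a3, −0.13 for Pdk1 and −0.02 for Eno1, which did not pass. Without the arrays labelled Chek1_R the count was 5, and Eno1 (0.09) no longer passed.

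Correlations between members still hold the Dox effect, so shared directions of change enter them. With the mean of each clone subtracted, Ldha and Slc2a1 correlated at Pearson r = 0.84 across the 30 arrays, and Ldha and Slc2a3 at 0.61. Aldoa ran against Ldha (r = −0.67) and against Slc2a1 (r = −0.58). These values are a description, since the arrays share clones, the Dox effect and the scaling, and all 4 probes were among the brightest of the array, with at most 1% of tested probes brighter. Outside the gene lists, the probes whose profile was most like the mean profile of the tested members over the 30 arrays were Rbms2 (r = 0.80), Dgkg (0.78), Afap1l1 (0.77), Slc44a1 (0.75) and Gadd45b (0.75). That mean profile does not stand for each member, since the members' own correlations with it ran from −0.09 for Pdk1 and 0.03 for Aldoa to 0.59 for Slc2a3.

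**Figure D3:**
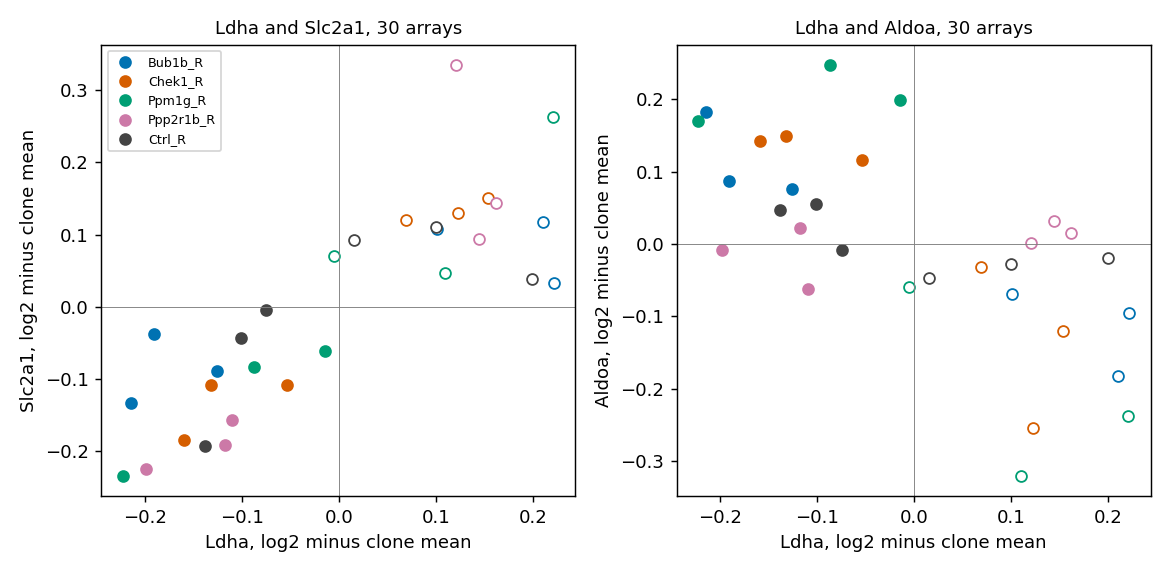
Log2 signal of Ldha (horizontal axis) against Slc2a1 (left) and Aldoa (right) on the 30 arrays after the mean of each clone was subtracted; colours are clones, filled points arrays with Dox and open points arrays without. Points rise from lower left to upper right for Slc2a1 (r = 0.84) and fall for Aldoa (r = −0.67).

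Each clone was also compared with Ctrl_R in the same condition, and these comparisons share the Ctrl_R arrays. With Dox, 1 of 8 members in Bub1b_R, 2 on the Chek1_R-labelled arrays, 2 in Ppm1g_R and 3 in Ppp2r1b_R passed the test and 1.5-fold, against 12.7%, 17.6%, 29.1% and 28.3% of all tested probes. Without Dox it was 2 of 8 in each clone, against 22.6%, 28.8%, 33.5% and 33.7%.

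Pgk1 was lower than in Ctrl_R in all 4 clones. In Ctrl_R with Dox it read 7.80, 7.71 and 7.85, above all 12 arrays of the other clones with Dox, the highest of which read 7.27. The deposited signals with Dox were 119.9, 150.7 and 131.9 in Ctrl_R. They reached 205.3 in Ppm1g_R, 141.6 in Ppp2r1b_R, 133.6 on the Chek1_R-labelled arrays and 117.2 in Bub1b_R. These deposited signals were already background-corrected. Except for Bub1b_R, the groups therefore separate only after the further background correction and scaling used here. The differences with Dox were −0.64 in Bub1b_R, −0.92 on the Chek1_R-labelled arrays, −0.95 in Ppm1g_R and −1.04 in Ppp2r1b_R, with an SE of 0.14 each and the highest adjusted p at 0.000734. Without Dox they were −1.10, −0.77, −0.94 and −0.44 in the same order, the last under 1.5-fold (adjusted p = 0.00815). With median scaling, which follows the same background correction, all 8 differences stayed negative and passed by adjusted p, at −0.51 to −1.06. Bub1b_R, the clone in the same signal set as Ctrl_R but with another range of sample numbers, showed it as well. Without its replicate 2 with Dox, however, its difference with Dox came under 1.5-fold.

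Pdk1 was higher in all 4 clones than in Ctrl_R. Its 3 Ctrl_R arrays with Dox read 9.62, 9.82 and 9.70, and the lowest of the 12 other arrays with Dox read 10.10. The differences with Dox were 0.46 in Bub1b_R, 0.79 on the Chek1_R-labelled arrays, 0.77 in Ppm1g_R and 0.60 in Ppp2r1b_R (SE 0.09 each, highest adjusted p = 0.000105). Without Dox they were 0.28, 0.78, 0.45 and 0.31, all past the test, though with median scaling the last became 0.07 and did not pass.

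Aldoa was lower than in Ctrl_R without Dox in Bub1b_R (−0.67, SE 0.06, adjusted p = 2.01e-09) and in Ppm1g_R (−0.66, adjusted p = 1.85e-09). In the arrays labelled Chek1_R it was lower by a difference of −0.36, and in Ppp2r1b_R the difference of −0.11 did not pass. The Bub1b_R arrays without Dox read at most 13.37 and those of Ctrl_R at least 13.98. With Dox the differences were −0.50, −0.15, −0.31 and −0.20, of which that of the arrays labelled Chek1_R did not pass (adjusted p = 0.0514). In Ppp2r1b_R median scaling gave −0.89 with Dox and −0.74 without, far from the values of −0.20 and −0.11.

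Slc2a1 lay above Ctrl_R in all 8 comparisons with quantile scaling, though with median scaling the difference of 0.35 in Ppm1g_R without Dox became −0.16. Median scaling also took away the call on the Chek1_R-labelled arrays, at 0.09 with Dox (adjusted p = 0.425) and 0.18 without (adjusted p = 0.0741), and in Ppm1g_R with Dox, at 0.07 (adjusted p = 0.502). It lay highest in Ppp2r1b_R, at 0.68 with Dox and 0.90 without (SE 0.07 each), values that median scaling lowered to 0.05, which did not pass, and 0.23. Slc2a3 lay 0.41 above Ctrl_R in Ppp2r1b_R with Dox and 0.58 above it without, but −0.32 and −0.08 with median scaling, so no direction holds there. Median scaling moved the median of all tested probes in Ppp2r1b_R against Ctrl_R to −0.18 both with and without Dox, against −0.04 in each with quantiles. Bub1b_R and Ctrl_R share a signal set but not a range of sample numbers. Between them Slc2a1 differed by 0.26 with Dox and 0.27 without, and by 0.38 and 0.33 with median scaling, all past the test.

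Ldha differed from Ctrl_R by adjusted p in Bub1b_R alone, at 0.18 with Dox and 0.32 without. In the other clones its differences lay between −0.14 and 0.02 and did not pass, while median scaling gave down to −0.71 (Ppp2r1b_R with Dox). The brighter Pfkl probe lay below Ctrl_R in all 8 comparisons, from −0.17 in Bub1b_R with Dox, which did not pass, to −0.53 in Ppm1g_R without, but in Bub1b_R with Dox it was 0.02 with median scaling. The dimmer Pfkl probe passed in 0 of 8, with values of −0.32 to 0.17 that had the other sign in 5 of 8, so the 2 probes of Pfkl disagree. Eno1 was lower by adjusted p in Ppp2r1b_R, at −0.28 with Dox and −0.29 without, and in Ppm1g_R without Dox (−0.16), and median scaling took the Ppp2r1b_R values to −0.98 and −1.03.

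**Figure D4:**
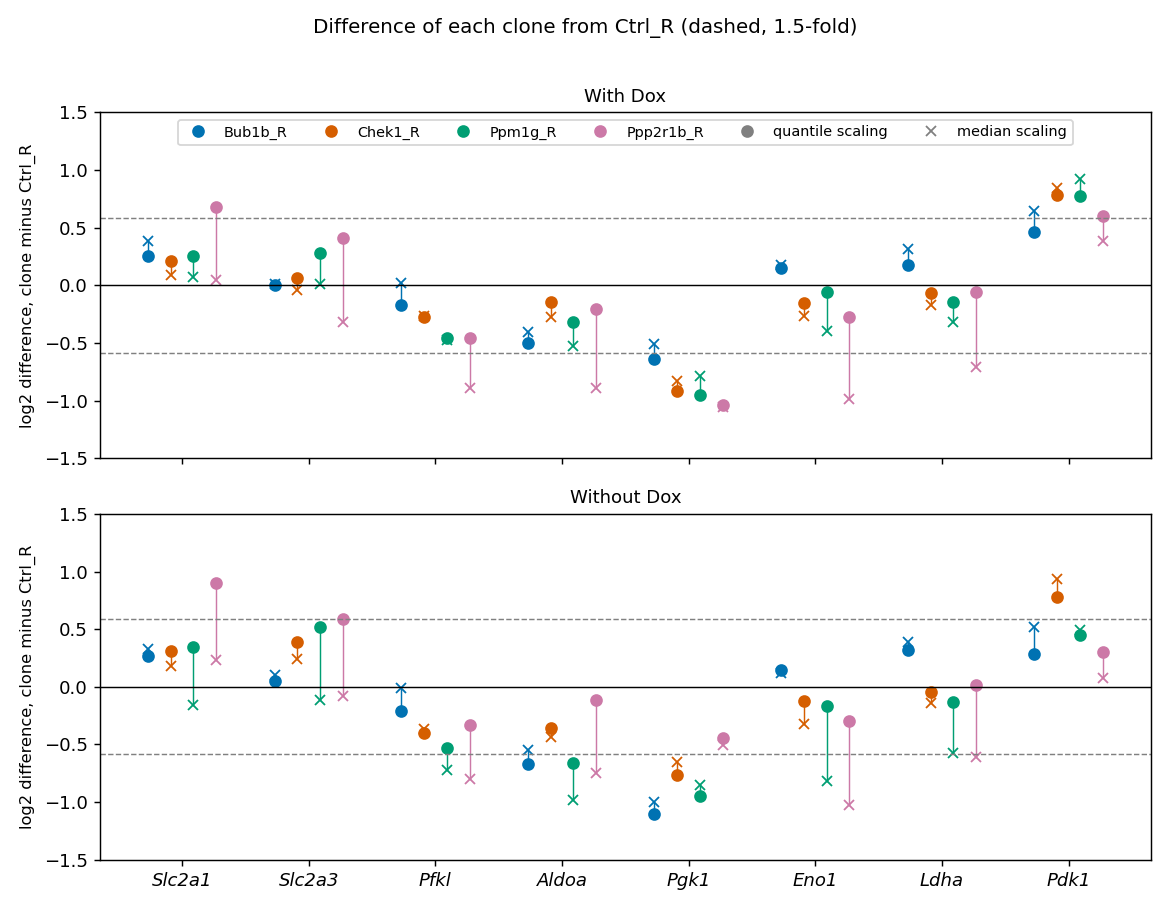
Log2 difference of each clone from Ctrl_R (vertical axis) for the 8 tested members (horizontal axis), with Dox (top) and without (bottom); circles are values with quantile scaling, crosses the same with median scaling, and dashed lines mark 1.5-fold. Circles and crosses of Pgk1 and Pdk1 keep their side of 0 in all 4 clones, while those of Slc2a3 in Ppp2r1b_R lie on opposite sides.

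Other enzymes of glycolysis moved in both directions. Of 12 tested, 2 rose and 5 fell in Bub1b_R, 0 rose and 2 fell on the arrays labelled Chek1_R, 0 rose and 5 fell in Ppm1g_R, and 3 rose and 1 fell in Ppp2r1b_R by adjusted p alone, while 0 passed in Ctrl_R in the limma fit, where 3 were higher at an unadjusted p under 0.05. By adjusted p, 11.6% of all tested probes rose and 12.8% fell in Bub1b_R, 14.5% and 16.5% on the arrays labelled Chek1_R, 11.6% and 11.7% in Ppm1g_R, 12.4% and 12.9% in Ppp2r1b_R, and 4.07% and 3.48% in Ctrl_R. The median change of the list was −0.05, −0.06, −0.04, 0.14 and 0.01 in these clones. Hk1, the hexokinase that traps glucose in most cells, changed most. In Ppm1g_R it read 7.61, 7.55 and 7.67 with Dox and 6.82, 6.81 and 6.55 without, which did not overlap, and it fell by 0.89 (SE 0.15, adjusted p = 0.000137). In Bub1b_R it fell by 0.66 (adjusted p = 0.00217), and in the other 2 clones it changed by −0.37 and −0.39, which did not pass. In Ctrl_R the change was −0.16. Pfkp and Pfkm, the other phosphofructokinase subunits, fell by up to 0.37 (Pfkp in Bub1b_R, adjusted p = 0.00692) and 0.36 (Pfkm in Ppm1g_R, adjusted p = 1.48e-05), where the brighter Pfkl probe changed by −0.03 and −0.07. Aldoc, named after its values were seen, fell by 0.76 in Ppm1g_R (adjusted p = 2.71e-07).

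Of 6 tested genes of lactate and pyruvate handling, 1 rose and 1 fell in Bub1b_R and 0 and 1 on the arrays labelled Chek1_R by adjusted p alone. The counts were 0 and 1 in Ppm1g_R, 2 and 1 in Ppp2r1b_R, and 1 and 0 in Ctrl_R. Of all tested probes 11.6%, 14.5%, 11.6%, 12.4% and 4.07% rose in these clones and 12.8%, 16.5%, 11.7%, 12.9% and 3.48% fell. Slc16a3, the exporter of lactate, rose in 3 clones, Ctrl_R among them. In Ppp2r1b_R it read 6.31, 6.11 and 5.70 with Dox and 7.10, 6.97 and 7.00 without, all above the former, a rise of 0.98 (SE 0.16, adjusted p = 6.66e-05). In Ctrl_R it rose by 0.73 (adjusted p = 0.00497) and in Bub1b_R by 0.51 (adjusted p = 0.0202). Pdk4, another inhibitor of pyruvate dehydrogenase, fell by 0.34 in Bub1b_R, 0.66 on the Chek1_R-labelled arrays and 0.73 in Ppm1g_R, past 1.5-fold except in Bub1b_R, and its change did not pass in Ppp2r1b_R (−0.17) or Ctrl_R (0.06). Its differences from the Ctrl_R change passed on the arrays labelled Chek1_R (−0.72, adjusted p = 0.00115) and in Ppm1g_R (−0.79, adjusted p = 0.000937). Without Dox its differences from Ctrl_R in the 4 clones were −1.09 to −2.64, whereas those of Pdk1 were positive. With Dox Pdk4 was already lower than in Ctrl_R in all 4 clones, past the test and 1.5-fold. Its means there were 7.27 in Bub1b_R, 7.50 on the Chek1_R-labelled arrays, 6.72 in Ppm1g_R and 7.71 in Ppp2r1b_R, against 8.57 in Ctrl_R. Pdk2 was detected on 6 arrays, and in Ppp2r1b_R on 2 of 3 arrays with Dox and on 0 of 3 without, at least 1.07-fold lower without Dox (adjusted p = 0.0314). In Bub1b_R it was likewise detected on 2 of 3 arrays with Dox and 0 of 3 without, at least 1.08-fold lower, but did not pass (adjusted p = 0.105), and in Ctrl_R it was the other way, on 0 of 3 with Dox and 2 of 3 without (adjusted p = 0.261).

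Of 5 tested regulators of HIF, 0 rose and 1 fell in Bub1b_R and 2 and 1 on the arrays labelled Chek1_R by adjusted p alone. The counts were 0 and 2 in Ppm1g_R, 3 and 0 in Ppp2r1b_R, with the dim Egln1 among the 3, and 1 and 0 in Ctrl_R. Of all tested probes 11.6%, 14.5%, 11.6%, 12.4% and 4.07% rose in these clones and 12.8%, 16.5%, 11.7%, 12.9% and 3.48% fell. Arnt, the partner of Hif1a, fell by 0.52 in Ppm1g_R (adjusted p = 0.00107), by 0.39 on the arrays labelled Chek1_R (adjusted p = 0.00678) and by 0.33 in Bub1b_R (adjusted p = 0.0273). In Ppp2r1b_R and Ctrl_R its change was 0.09 in each. The difference from the Ctrl_R change passed in Ppm1g_R (−0.60, adjusted p = 0.0105) and on the Chek1_R-labelled arrays (−0.48, adjusted p = 0.0303), there not with median scaling (−0.42). Against Ctrl_R it was lower in all 4 clones, by differences of −0.78 to −1.31 with Dox and −1.27 to −1.60 without. Hif1a itself changed by 0.14 to 0.30 and rose on the arrays labelled Chek1_R (0.30, adjusted p = 0.0399) and in Ppp2r1b_R (0.30, adjusted p = 0.045), with 0.29 in Ctrl_R (adjusted p = 0.109). Egln1 was detected on 6 arrays. In Ppp2r1b_R it was not detected on the 3 arrays with Dox and detected on 2 of 3 without, where the fitted change was 0.59 (adjusted p = 0.000933) but the bound against background gave no fold.

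Of 16 other HIF targets tested, 10 rose and 0 fell in Ppp2r1b_R, 6 rose and 0 fell in Ctrl_R, 2 rose and 1 fell in Bub1b_R, 2 rose and 3 fell on the arrays labelled Chek1_R, and 1 rose and 5 fell in Ppm1g_R, by adjusted p alone. Of all tested probes 12.4%, 4.07%, 11.6%, 14.5% and 11.6% rose in these clones and 12.9%, 3.48%, 12.8%, 16.5% and 11.7% fell. Against the change in Ctrl_R, 1 of the 16 was higher in Ppp2r1b_R (Ndrg1) and 0 lower, while 0 were higher and 1, 4 and 5 lower in Bub1b_R, the arrays labelled Chek1_R and Ppm1g_R. Of all tested probes 3.76% were higher and 4.52% lower in that comparison in Ppp2r1b_R, and 6.32%, 9.8% and 6% were lower in the other 3. The median change of the list on Dox withdrawal was 0.38, 0.25, 0.07, 0.01 and −0.10 in these clones, against −0.01, 0, −0.01, −0.02 and −0.01 over all tested probes. The list shares Pfkfb3, Pfkfb4 and Egln3 with the lists above. Ndrg1, a hypoxia-induced gene, read 8.34, 8.26 and 8.42 with Dox and 9.20, 9.20 and 9.22 without in Ppp2r1b_R, and rose by 0.87 (SE 0.09, adjusted p = 2.44e-07). In Ppm1g_R it read 8.69, 8.68 and 8.73 with Dox and 8.10, 8.24 and 7.97 without, and fell by 0.60 (adjusted p = 3.69e-05). The groups did not overlap in either clone, and the directions were opposite. Both differed from the change in Ctrl_R, by 0.66 (adjusted p = 0.00243; 0.59 with median scaling, which did not pass) and by −0.80 (adjusted p = 0.000188).

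Bnip3l, the relative of the undetected Bnip3, rose by 0.28 to 0.38 in Bub1b_R, the arrays labelled Chek1_R, Ppp2r1b_R and Ctrl_R, and changed by 0.21 in Ppm1g_R (adjusted p = 0.0503). Vegfa, the angiogenic factor, fell by 0.31, 0.58 and 0.33 in Bub1b_R, the arrays labelled Chek1_R and Ppm1g_R. It did not pass in Ppp2r1b_R (mean 11.23 with Dox and 11.35 without) or in Ctrl_R (10.68 and 10.71). Against the change in Ctrl_R it passed on the arrays labelled Chek1_R alone. Adm, a vasodilator peptide, and P4ha1, a collagen prolyl hydroxylase, rose in Ppp2r1b_R by 0.78 and 0.73 and were named after their values were seen. Neither rise passed against the change in Ctrl_R. Car12, a carbonic anhydrase also named afterwards, was detected on 3 of 3 arrays with Dox and 0 of 3 without among those labelled Chek1_R, at least 1.37-fold lower without Dox (adjusted p = 0.000523). In Ctrl_R Car12 rose by adjusted p, from a mean of 6.74 with Dox to 7.31 without. Against Ctrl_R without Dox, 8 of the 16 targets were lower in Bub1b_R, 8 on the Chek1_R-labelled arrays, 7 in Ppm1g_R and 2 in Ppp2r1b_R, while 0, 0, 2 and 5 were higher, past the test and 1.5-fold. Of all tested probes 11.7%, 14.6%, 16.8% and 17.1% were lower and 10.9%, 14.1%, 16.7% and 16.6% higher by the same limits.

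**Figure D5:**
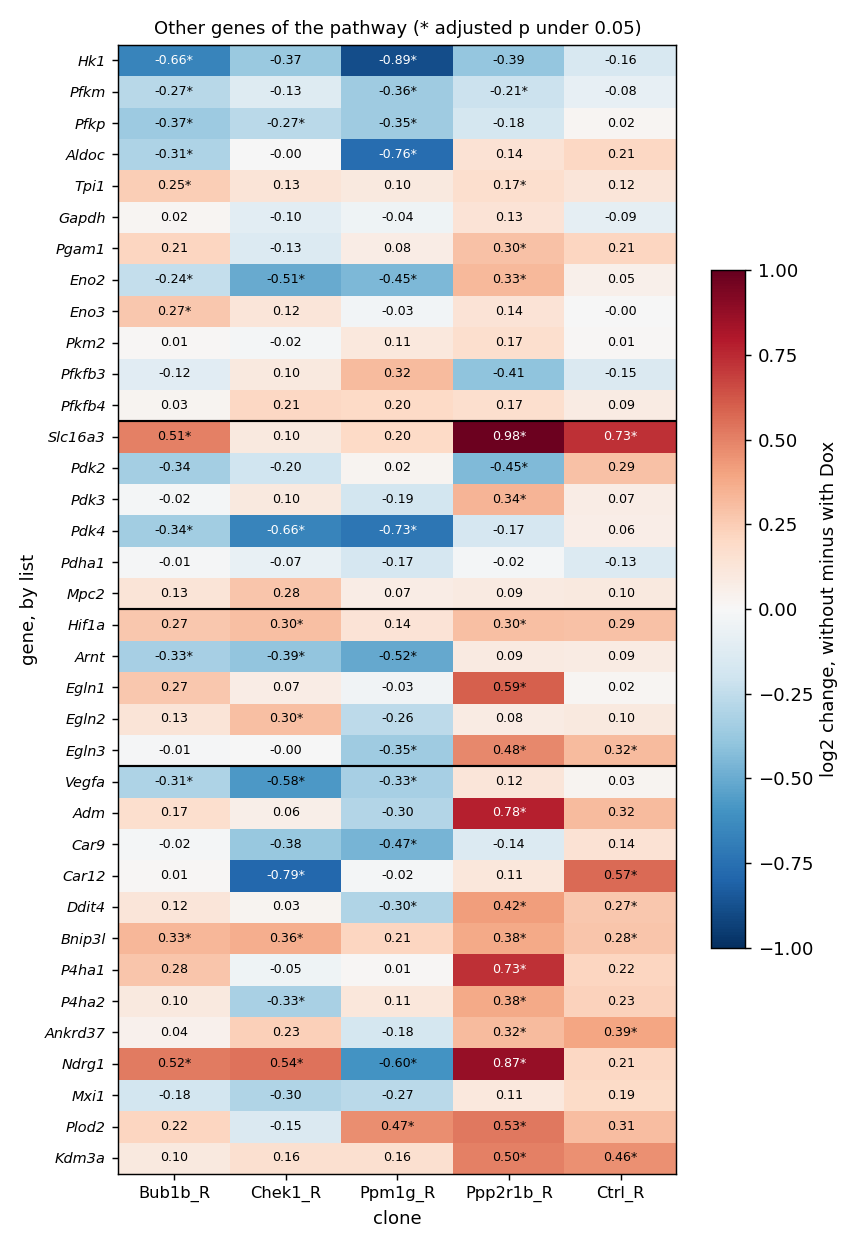
Log2 change on Dox withdrawal (colour and printed value) of the other tested genes of glycolysis, lactate and pyruvate handling, HIF regulation and HIF targets (rows, lists divided by lines; a gene of several lists is drawn once) in the 5 clones (columns); asterisks mark an adjusted p under 0.05. Ndrg1 is 0.87 in Ppp2r1b_R and −0.60 in Ppm1g_R, and Slc16a3 is 0.98 in Ppp2r1b_R and 0.73 in Ctrl_R.

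Markers of other cell types moved on the same arrays. The mean log2 level of the primitive streak and mesoderm markers T, Mixl1 and Evx1 ranged from 7.46 to 7.56 on Bub1b_R arrays with Dox and from 10.13 to 10.17 without, from 5.36 to 5.59 and from 9.23 to 9.29 on the arrays labelled Chek1_R, from 7.26 to 7.35 and from 8.82 to 9.03 in Ppm1g_R, and from 6.03 to 6.20 and from 7.22 to 7.42 in Ppp2r1b_R. In Ctrl_R it ranged from 5.23 to 5.70 with Dox and from 5.47 to 5.69 without, so these ranges overlap only there. Past the test and 1.5-fold, 3, 3, 3, 2 and 1 of these 3 markers rose in the 5 clones. Of all tested probes 2.94%, 4.49%, 2.3%, 2.77% and 0.706% did. Mixl1 was not detected on any array of Ppp2r1b_R and Ctrl_R. The mean level of the 6 ESC markers ranged from 11.58 to 11.62 with Dox and from 10.89 to 10.99 without in Ppp2r1b_R, from 11.90 to 11.94 and from 11.46 to 11.51 in Bub1b_R, from 11.82 to 11.88 and from 11.62 to 11.69 on the arrays labelled Chek1_R, from 12.00 to 12.06 and from 11.83 to 11.84 in Ppm1g_R, and from 12.05 to 12.09 and from 11.84 to 11.94 in Ctrl_R. Against the change in Ctrl_R, 4 of these 6 fell further in Ppp2r1b_R and 2 in Bub1b_R by adjusted p, against 4.52% and 6.32% of all tested probes. On the arrays labelled Chek1_R and in Ppm1g_R 0 passed in limma (0 and 1 at an unadjusted p under 0.05), where 9.8% and 6% of all tested probes were lower by adjusted p. The paper states that the cells for the arrays were grown without feeder cells. Of 7 fibroblast feeder markers Col1a2, Postn and Lum were detected on no array, while Col1a1 rose by 0.58 to 1.06 in the 4 clones and changed by −0.12 in Ctrl_R. Which cells the transcripts of the detected markers came from was not tested. Dcn, detected on at most 1 of 3 arrays with Dox in each clone, was higher without it by 0.68 in Bub1b_R and at least 1.91-fold, 1.25-fold and 1.31-fold higher on the Chek1_R-labelled arrays, Ppm1g_R and Ppp2r1b_R, in this order, and was not detected in Ctrl_R. Col3a1 rose by 0.44 in Ppm1g_R, where it was detected on 2 of 3 arrays in each condition. On the Chek1_R-labelled arrays the fitted change was 0.41, but it was detected on 0 of 3 arrays in either condition, so no rise can be read there. In Bub1b_R it went the other way, detected on 3 of 3 arrays with Dox and 0 of 3 without. It was at least 1.11-fold lower there without Dox, a change that did not pass. Thy1 went down instead, by −0.32 in Bub1b_R, −0.81 on the Chek1_R-labelled arrays and −0.61 in Ppm1g_R, and changed by −0.02 in Ppp2r1b_R and 0.05 in Ctrl_R. The mean level of the 7 ranged from 5.77 to 5.86 with Dox and from 5.96 to 5.99 without in Bub1b_R, from 5.62 to 5.66 and from 5.93 to 5.99 on the arrays labelled Chek1_R, from 5.54 to 5.67 and from 5.76 to 5.95 in Ppm1g_R, and from 5.52 to 5.70 and from 5.85 to 6.07 in Ppp2r1b_R. In Ctrl_R it ranged from 5.63 to 5.82 and from 5.64 to 5.72, and these ranges overlap only there. Of the endoderm markers, Gata6 rose by 1.29 and Sox17 by at least 1.49-fold in Bub1b_R, Gata6 also rose under 1.5-fold in Ppm1g_R and on the Chek1_R-labelled arrays, Gata4 was at least 1.08-fold lower without Dox in Ppp2r1b_R, and Afp was detected on no array. The part of these shifts in the changes of the members was not tested.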

How the data were processed

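Mouse ESC RNA was hybridized to Illumina WG8-V2 arrays, 1 colour, 30 samples in 5 clones. The authors deposited a background-corrected signal intensity, negative for some probes, and a detection p-value for each probe, not normalized. Their processing notes name lumi, with its role and version not given in the sources used here. In the deposited files, the detection p-values of 2 arrays held 46 and 14 cells turned into dates. Of these 28 and 6 were converted back, and 18 and 8 were taken from the probe nearest in signal on the same array.

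Intensities were background-corrected again, quantile-normalized and log2-transformed with neqc (offset 16) in limma 3.58.1 (R 4.3.3, statmod 1.5.0). The tested probes were those with a detection p under 0.05 on 3 or more arrays. One linear model over 10 condition means was fitted to all 30 arrays (20 residual and 3.38 prior degrees of freedom), with moderated tests, Benjamini-Hochberg adjustment over 15151 probes, and contrasts for Dox withdrawal, its difference from Ctrl_R, its mean over 4 clones, and clone minus Ctrl_R. A gene with several probes was represented by the brightest. Replicate arrays correlated at r = 0.990 to 0.997. The scripts were tested on simulated data.

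All members are named, with the 3 genes of each other list with the largest mean change over the 4 clones, and the 5 probes outside the lists most like the members' mean profile. Members and lists were chosen with earlier results of these data known, and the lists are not independent evidence. Promoters are RefSeq windows of GRCm38.p6. Alternatives were median scaling, scaling within each clone, no further background correction, offsets of 50 and 200, and other detection filters and fold limits. Further ones were the mean of all probes, only the arrays compared, a replicate block, the methods' t-test per probe, and leaving out each array. Arrays of a further clone, Aurka_R, were not analysed here.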

Additional observations from a re-analysis of the deposited data

Results flagged for a closer look

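The changes of Aldoa and Pgk1 on Dox withdrawal differed among the 4 clones in limma's F-test. For Aldoa the adjusted p was 0.00416, with falls in Bub1b_R, Ppm1g_R and the arrays labelled Chek1_R and a change of 0.03 in Ppp2r1b_R. For Pgk1 it was 0.00287, with a fall of 0.59 in Bub1b_R and a rise of 0.47 in Ppp2r1b_R. The change of Aldoa in Ppm1g_R also differed from that in Ctrl_R (log2 difference −0.348, limma, adjusted p = 0.00933), and every Ppm1g_R array without Dox lay below every one with it.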

How the results depend on the processing

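Of 22 member changes that passed by adjusted p, direction and call were kept in 212 of 248 fits under other settings, with 3 reversed, and in 222 of 240 fits without 1 array, with 0 reversed. The cause of the moves below was not tested except where the setting itself shows it. For most of these settings the share of all tested probes called was not worked out. A move in a member count below is therefore not a result about the members. Dim probes such as Pgk1 lie close to background, so the offset moves them most, and signal over background limits what can be said of Bnip3, Pdk2 and Egln1.

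Median scaling gave the most moves. Past 1.5-fold on Dox withdrawal it left 0 members in Bub1b_R (1 with quantiles), and by adjusted p 0 in Ctrl_R (1), 2 on the arrays labelled Chek1_R (4) and 3 in the mean of the 4 clones (6). Against Ctrl_R it gave 5 in Ppp2r1b_R with Dox (3) and, without Dox, 4 in Ppp2r1b_R (2), 4 in Ppm1g_R (2) and 1 in Bub1b_R (2). In Ppm1g_R it reversed Ldha to −0.0303, Slc2a1 to −0.0476, Slc2a3 to −0.17 and Eno1 to −0.30 (adjusted p = 0.0375), in Bub1b_R Pfkl to 0.0045, and Eno1 to −0.0225 in the mean. It moved the median of all tested probes against Ctrl_R to −0.18 in Ppp2r1b_R and 0.10 in Bub1b_R without Dox, and the share of calls that were higher from 49.4% to 34% in Ppp2r1b_R and from 48.3% to 64.8% in Bub1b_R without Dox, and from 50.2% to 33.9% in Ppp2r1b_R with Dox. For Dox withdrawal these shares went from 52.4% to 62.6% in Bub1b_R, from 48.5% to 59.9% on the arrays labelled Chek1_R, and from 51.8% to 36.2% in Ppm1g_R relative to Ctrl_R. On Dox withdrawal in Ppm1g_R it went from 52.7% to 43.1%.

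With a 2-fold limit, the differences from Ctrl_R fell to 1 member in Bub1b_R and 0 in the other 3 without Dox, to 1 in Ppp2r1b_R and 0 in the other 3 with Dox, and to 0 on Dox withdrawal in Bub1b_R. With no fold limit they came to 6, 6, 7 and 6 members without Dox and 5, 4, 6 and 7 with Dox in Bub1b_R, the Chek1_R arrays, Ppm1g_R and Ppp2r1b_R, and Dox withdrawal gave 3, 4, 4 and 4, with 1 in Ctrl_R, 6 in the mean and 1 in Ppm1g_R relative to Ctrl_R. An offset of 200 gave 1 member in each clone without Dox, and 0, 1, 1 and 1 with Dox, 0 on Dox withdrawal in Bub1b_R, and relative to Ctrl_R 2 on the Chek1_R arrays, 2 in Ppm1g_R and 1 in Ppp2r1b_R. An offset of 50 gave 0 on Dox withdrawal and 0 with Dox in Bub1b_R, 1 without Dox in Ppp2r1b_R, and relative to Ctrl_R 1 on the Chek1_R arrays and 1 in Ppp2r1b_R.

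By adjusted p, a fit of only the arrays compared called 1 member in Ppm1g_R, 0 in Ppp2r1b_R and 0 in Ctrl_R on Dox withdrawal, and relative to Ctrl_R 0 in Ppm1g_R and 1 on the Chek1_R arrays. The methods' t-test after Benjamini-Hochberg adjustment called 1 in Bub1b_R, 0 in Ppm1g_R, 1 in Ppp2r1b_R and 0 in Ctrl_R, 0 past 1.5-fold in Bub1b_R, and 1 on the Chek1_R arrays relative to Ctrl_R. Relative to Ctrl_R, the Chek1_R arrays had 1 call with the mean of all probes, 1 with the strict detection filter and 2 with scaling within each clone, and the strict filter gave 1 in Ppp2r1b_R by both rules. With no detection filter, Ctrl_R had 0 calls. The mean of all probes reversed Pfkl to 0.0172 in Bub1b_R and −0.0624 in Ctrl_R, and the mean without the Chek1_R arrays, chosen after seeing the data, reversed it to 0.0072.

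The replicate block called 2 members in Ppm1g_R and 0 in Ctrl_R on Dox withdrawal, and 1 in Ppp2r1b_R relative to Ctrl_R by both rules. The numbers do not pair the arrays, since 1 of 15 same-number correlations of deviations passed 0.1 (−0.0835 to 0.1308).

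Leaving out single arrays gave 0 to 1 members past 1.5-fold on Dox withdrawal in Bub1b_R (0 without replicate 1 with Dox or replicate 3 without Dox), and by adjusted p 0 to 1 in Ctrl_R, 1 to 5 in Ppm1g_R (1 without replicate 3 with Dox, 2 without replicate 2 without Dox) and 2 to 4 in Ppp2r1b_R (2 without replicate 1 with Dox). Relative to Ctrl_R the ranges were 0 to 1 on the Chek1_R arrays and 0 to 1 in Ppp2r1b_R by both rules. Against Ctrl_R they were 0 to 1 in Bub1b_R and 2 to 3 in Ppp2r1b_R with Dox, and 1 to 2 in Ppp2r1b_R without. Signs changed for Pgk1 on the Chek1_R arrays (−0.0680 to 0.0917) and in Ppm1g_R (−0.29 to 0.0192), Pdk1 on the Chek1_R arrays (−0.0071 to 0.0742) and in Ctrl_R (−0.0131 to 0.0871), Eno1 in Ppm1g_R (−0.0473 to 0.10), Pfkl in Bub1b_R (−0.0777 to 0.0161) and Ctrl_R (−0.0471 to 0.0384), and Slc2a3 in Ctrl_R (−0.0368 to 0.0107), none of which had passed.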
